A study of Homo sapiens with 6 samples.

Results

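Levels of 10 genes of cellular iron handling were compared in MDA-MB-231 cells, a human triple-negative breast cancer line, with and without overexpression of the splicing-factor kinase SRPK2. The genes were chosen by symbol from the 29710 genes of the deposited count table: LCN2, FTH1, FTL, TFRC, SLC11A2, SLC40A1, HMOX1, STEAP3, IREB2 and ACO1. LCN2 led to the choice of the group because it fell with SRPK2, so its change is given as a description and no p is given for it. The other 9 were named for their role in iron handling. All 10 had a row, and all 10 passed the filter on low counts.

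The empty-vector group (called NC, 3 libraries) and the SRPK2-FLAG group (3 libraries) were the same cell line, labelled as separate biological replicates of strand-specific RNA sequencing. The sources used here do not give the promoter, the time after delivery of the vector, the iron supply of the medium or the number of clones. Libraries held between 31140537 and 36908878 reads assigned to genes. SRPK2 itself stood at 38.6 ± 2.27 CPM (SD, n = 3), counts per 1000000 reads after TMM scaling, in NC and at 252 ± 41.0 CPM (SD, n = 3) with SRPK2. The mesenchymal line's markers VIM, CD44 and AXL summed to between 5250 and 5660 CPM in every library. Of 5 luminal and receptor genes that should be low in the line, ESR1 and PGR had group means of at most 0.0653 CPM and CDH1 of at most 2.63 CPM. EPCAM stood at 14.7 and 14.4 CPM and ERBB2 at 47.1 and 51.4 CPM in NC and SRPK2 libraries.

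Cells take up iron bound to transferrin through the transferrin receptor, reduce it in endosomes, move it to the cytosol, and either use it, store it inside ferritin shells or export it through ferroportin. Lipocalin 2 binds bacterial and mammalian siderophores, small iron chelators, and is induced in epithelia and tumours by inflammatory signals. A pair of RNA-binding proteins, encoded by ACO1 and IREB2, couple supply to use. When iron is scarce they bind hairpins called iron-responsive elements (IREs), which blocks translation of ferritin and ferroportin mRNAs and stabilises the transferrin receptor mRNA.

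The IREs of 4 of the genes are shown because they are the sequences through which iron reaches these mRNAs. A script searched the untranslated regions of protein-coding transcripts (GENCODE 29, GRCh38) for a C, then 5 bases, the loop CAGTGN and 5 bases that pair with the first 5, G-T pairs included, on the transcribed strand. The bulged C and the 6-base loop are in capitals. FTH1 (chr11:61967574-61967602, minus strand, 5′ UTR, exon 1), FTL (chr19:48965335-48965363, plus strand, 5′ UTR, exon 1), SLC40A1 (chr2:189580661-189580689, minus strand, 5′ UTR, exon 1) and TFRC (minus strand, 3′ UTR, exon 19, the first of its matches at chr3:196050979-196051007) gave these 29-base sites.
FTH1: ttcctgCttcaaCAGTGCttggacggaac
FTL: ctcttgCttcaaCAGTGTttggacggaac
SLC40A1: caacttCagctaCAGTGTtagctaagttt
TFRC site 1: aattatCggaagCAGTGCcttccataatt
TFRC site 2: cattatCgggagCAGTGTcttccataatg
TFRC site 3: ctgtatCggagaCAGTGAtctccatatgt
TFRC site 4: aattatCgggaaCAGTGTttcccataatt
The pattern was present in the untranslated regions of 168 of 19258 genes (0.872%). SLC11A2, LCN2, HMOX1, STEAP3, IREB2 and ACO1 held no match, which says only that this pattern is not in their annotated untranslated regions. The search allows no unpaired base in the arms and no other loop, so it would miss an IRE that departs from this form.

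In the edgeR quasi-likelihood fit over all 16515 tested genes, with Benjamini-Hochberg adjustment and a threshold of 0.05, 1 of the 10 genes was called, LCN2, against a background of 0.454% of all tested genes (0.0727% called lower and 0.381% called higher). Ferritin heavy and light chain and HMOX1 were lower in the means with SRPK2 by between 0.21 and 0.24 on the log2 scale. They did not pass in this fit. They passed with no filter on low counts and with replicate number as a block in the model, where 997 and 3899 genes passed. The importers TFRC and SLC11A2, the ferrireductase STEAP3, the exporter SLC40A1 and the sensors IREB2 and ACO1 had log2 fold changes between -0.04 and 0.07. The median of the 10 genes was -0.03, beside 0.00 over all tested genes. In 4 of the 10 genes the NC and SRPK2 libraries had separate CPM ranges (LCN2, FTH1 and HMOX1 lower, STEAP3 higher), where 20.1% of all tested genes had separate ranges. LCN2 was chosen from this comparison, so nothing is read from these counts. An unadjusted edgeR p under 0.05 was held by 2833 of the 16515 tested genes (17.2%), the background for every unadjusted count of a gene list given here, and 48.8% of the tested genes had a negative log2 fold change. The balance of calls over all genes, 12 lower and 63 higher, turned to more lower than higher in some settings: 607 and 390 with no filter on low counts, and 852 and 551 without SRPK2 replicate 2.

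**Figure D1:**
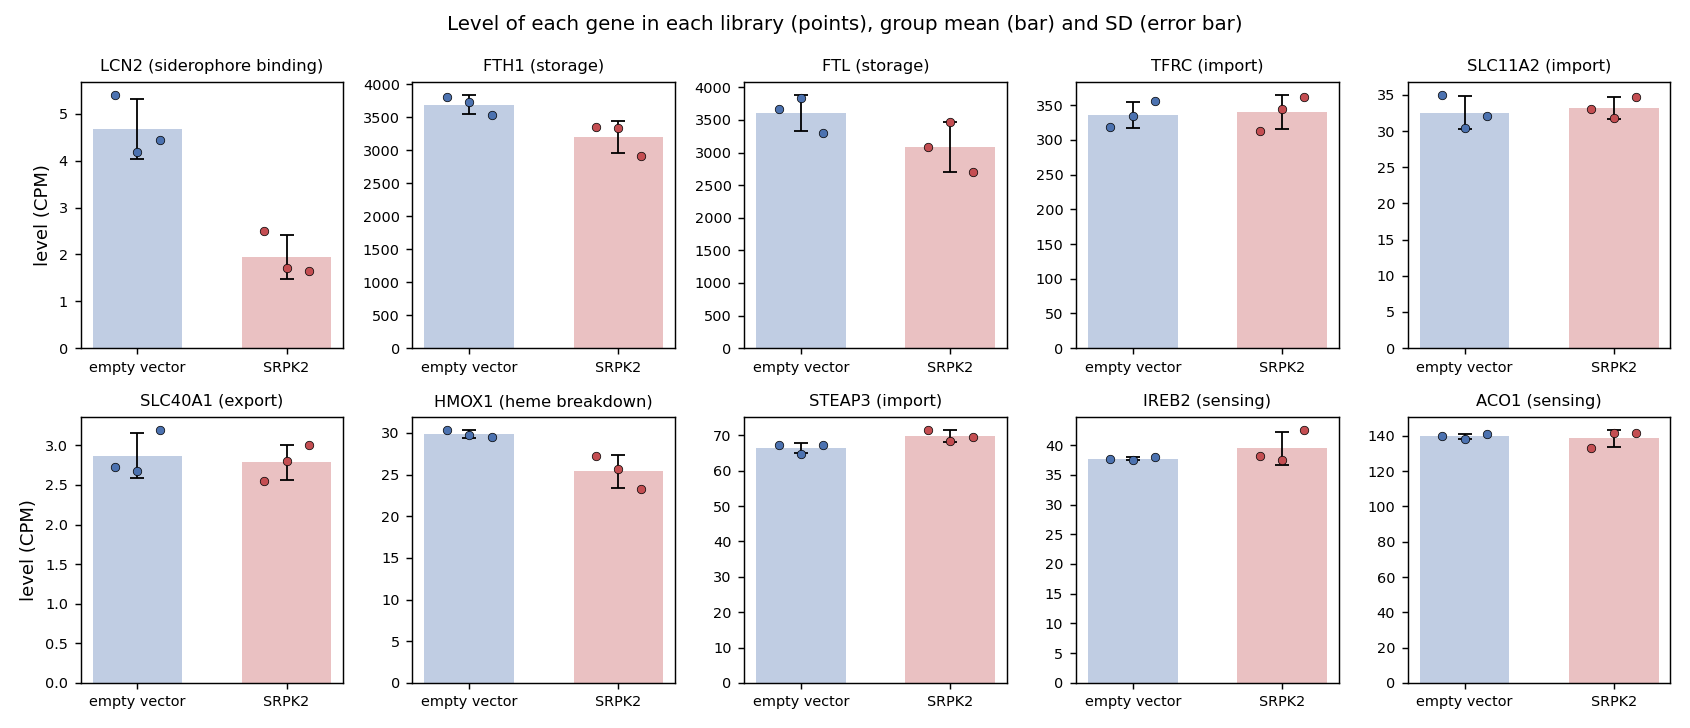
Level of each of the 10 genes in CPM (y axis, from 0) in the empty-vector and SRPK2 groups (x axis). Points are the 3 libraries of a group, bars the mean and error bars the SD. LCN2 was between 4.19 and 5.41 CPM in the empty-vector libraries and between 1.64 and 2.49 CPM in the SRPK2 libraries, while TFRC, SLC11A2, SLC40A1, IREB2 and ACO1 overlapped between groups.

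LCN2 (ENSG00000148346.12, chr9:128149071-128153455, plus strand, overlapping no other annotated gene) encodes the siderophore-binding lipocalin 2. It had 190, 136 and 163 reads in NC replicates 1 to 3, and 78, 60 and 63 reads in SRPK2 replicates 1 to 3. These were 5.41, 4.19 and 4.45 CPM against 2.49, 1.72 and 1.64 CPM. Every SRPK2 library lay below every NC library. Group means were 4.68 ± 0.64 and 1.95 ± 0.47 CPM (SD, n = 3 each), a 2.43-fold lower level with SRPK2, with a log2 fold change of -1.28 (SE 0.17, 95% interval -1.64 to -0.92). In bulk RNA a smaller number of LCN2-expressing cells and less LCN2 RNA per cell cannot be told apart. When 1 library at a time was left out, the log2 fold change lay between -1.48 and -1.16. On the authors' length-scaled values the means were 2.63 ± 0.36 FPKM (fragments scaled to gene length and library size) in NC and 1.12 ± 0.26 FPKM with SRPK2 (SD, n = 3 each). With at most 190 reads in a library, LCN2 had the largest SE of the 10 genes.

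Neutrophil granules are rich in lipocalin 2, so markers of granulocytes were counted beside it. Of 8 granulocyte markers 7 had a row, and their summed level was 0.256 to 1.42 CPM in NC and 0.192 to 0.429 CPM with SRPK2. The highest value was that of NC replicate 3, which had 15 reads of S100A9 and 9 of S100A8, genes at 0 reads in the other 5 libraries, and 2 of MPO, the myeloperoxidase gene, also at 0 elsewhere. All 7 markers had a read in NC replicate 3, and 2 had a read in each other library. LCN2 stood at 5.41, 4.19 and 4.45 CPM in NC replicates 1 to 3. Its log2 fold change was -1.32 without NC replicate 3. The share of granulocyte RNA in the LCN2 reads was not tested. Erythroid markers summed to at most 11 reads in an NC library and to 0 in the SRPK2 libraries. In macrophage markers the ranges were 12.9 to 14.1 and 11.5 to 13.7 CPM, and the pan-leukocyte gene PTPRC had at most 9 reads in a library.

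The 250 bases before the RefSeq start of LCN2 (chr9:128149203-128149452, GRCh38.p14, plus strand) are shown because inflammatory induction of this gene is known to run through NF-kB and C/EBP factors. The annotations differ in the start, and this window lies inside the GENCODE 29 gene, which starts at chr9:128149071. Capitals mark matches on either strand to a loose kappa B pattern (GGG and CC with 5 bases between them) and to TTGCNNAA, a loose C/EBP pattern.
LCN2: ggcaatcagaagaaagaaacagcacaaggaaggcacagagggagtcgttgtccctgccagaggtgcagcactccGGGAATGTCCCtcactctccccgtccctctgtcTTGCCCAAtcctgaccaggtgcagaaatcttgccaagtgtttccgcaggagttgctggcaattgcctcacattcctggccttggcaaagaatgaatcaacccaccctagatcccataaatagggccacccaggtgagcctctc
The first stretch holds a pair of overlapping matches on opposite strands. Of the 35116 RefSeq promoter windows, cut to the same length, 54.4% held the first pattern and 9.05% the second, so a match is common and describes only the letters. RefSeq windows were matched for LCN2, FTL, TFRC, SLC11A2, SLC40A1, STEAP3, IREB2 and ACO1. FTH1 and HMOX1 had no entry.

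The list of inducers and factors acting on LCN2 (NF-kB, C/EBP, interleukin and STAT3 signalling) held 14 tested genes. Of these, 0 were called in edgeR, by DESeq2 or by limma-voom, where edgeR called 0.454% of all tested genes. An unadjusted edgeR p under 0.05 was held by 4 (28.6%, beside 17.2% of all tested genes). The median log2 fold change was 0.11. NFKBIA, the NF-kB inhibitor, was at 113 ± 1.27 CPM in NC and 127 ± 4.92 CPM with SRPK2 (SD, n = 3 each). Its log2 fold change of 0.16 (SE 0.05) had an edgeR adjusted p = 0.170. NFKBIA passed in 3 of 13 other processing settings, among them the gene length correction (0.22, edgeR adjusted p = 0.0260). IL6, the interleukin 6 gene, had 0.11 (SE 0.06, edgeR adjusted p = 0.353). A few more are named here after their values were seen. NFKBIZ, a nuclear cofactor needed for LCN2 induction, had 0.23 (SE 0.08, edgeR adjusted p = 0.197), the opposite sign to LCN2. NFKBIZ passed in 3 of 13 other processing settings, among them no filter on low counts (edgeR adjusted p = 0.0378). IL1B, the interleukin 1 beta gene, had -0.24 (SE 0.08, edgeR adjusted p = 0.204), and the transcription factor genes CEBPB and CEBPD both had -0.12 (edgeR adjusted p = 0.312 and 0.377). Among LCN2's receptors and partners only 2 of 12 genes were tested. The receptor gene LRP2 was at 0.269 and 0.209 CPM and MMP9, a protease that lipocalin 2 binds, at 0.802 and 0.948 CPM in NC and SRPK2 libraries (edgeR adjusted p = 0.724 and 0.658). SLC22A17, another receptor gene, had 1 read in all 6 libraries together.

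The genes whose log2 CPM tracked LCN2 most closely over the 6 libraries, among the 12635 compared (mean log2 CPM no lower than 1), included RP11-161H23.5, PMEPA1, TMEM41A and LINC00511, with Pearson's r of 0.996, 0.993, 0.992 and 0.988. All 6 libraries share the split into NC and SRPK2, and 209 genes had r over 0.9, so these values describe the pattern only. PMEPA1, a TGF-beta-induced gene, went from 76.7 ± 4.37 to 55.1 ± 3.63 CPM (SD, n = 3 each). The log2 fold changes were -0.48 for PMEPA1 and -0.56 for RP11-161H23.5. TMEM41A and LINC00511 both had -0.14. As the genes were picked for tracking LCN2, itself chosen for its fall, no test is given for them.

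Ferritin is a shell of heavy (FTH1, which oxidises iron) and light (FTL, which aids mineral formation) chains, and both mRNAs were among the most abundant of the cell. In the NC libraries FTL ranked 11 and FTH1 16 of 16321 protein-coding genes by FPKM. FTH1 (ENSG00000167996.16, chr11:61959718-61967660, minus strand, overlapping BEST1 on the opposite strand) was at 3811, 3739 and 3531 CPM in NC and 3349, 3343 and 2921 CPM with SRPK2. Every SRPK2 library was below every NC library. edgeR gave a log2 fold change of -0.21 (SE 0.07, 95% interval -0.35 to -0.06, edgeR adjusted p = 0.194). FTL (ENSG00000087086.15, chr19:48965301-48966878, plus strand) was at 3672, 3841 and 3295 CPM in NC and 3085, 3470 and 2705 CPM with SRPK2. Here SRPK2 replicate 2 lay above NC replicate 3. edgeR gave -0.22 on the log2 scale (SE 0.09, 95% interval -0.41 to -0.03, edgeR adjusted p = 0.234). Intervals here are for single genes and are not adjusted for the number of genes.

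The deviations of the chains had the same sign in 4 of 6 libraries, and their ratio differed between groups by less than its SD. The FTH1 to FTL read ratio was 1.03 ± 0.05 in NC and 1.04 ± 0.07 with SRPK2 (SD, n = 3 each). Together they took 0.720 ± 0.026% of all reads in NC and 0.636 ± 0.047% with SRPK2 (SD, n = 3 each), with SRPK2 replicate 3 lowest at 0.584%. The median of 82 ribosomal protein genes, also short and abundant, was lowest in the same library. As deviations from the mean over libraries on the log2 scale, that median was 0.11, 0.32 and -0.03 in NC and -0.14, 0.10 and -0.35 with SRPK2, beside 0.14, 0.21 and -0.01 and then -0.11, 0.06 and -0.30 for FTL. FTL had the sign of that median in all 6 libraries. FTH1, at 0.15, 0.12 and 0.04 in NC and -0.04, -0.04 and -0.23 with SRPK2, had it in 4 of 6, NC replicate 3 and SRPK2 replicate 2 being the exceptions. After each library was corrected for gene length the log2 fold changes were -0.14 for FTH1 and -0.15 for FTL (edgeR adjusted p = 0.267 and 0.272). In the main fit the median log2 fold change of the ribosomal genes was -0.26, beside -0.21 for FTH1 and -0.22 for FTL. The ribosomal genes were picked after their values were seen, and their part in the ferritin values was not tested. Without SRPK2 replicate 2 FTL passed the threshold (log2 fold change -0.32, edgeR adjusted p = 0.0289) and FTH1 did not (edgeR adjusted p = 0.0567). In that fit 1403 of 16772 tested genes passed. Without SRPK2 replicate 3 FTL was at -0.14 (edgeR adjusted p = 0.595). With no filter on low counts FTH1 and FTL passed (edgeR adjusted p = 0.00601 and 0.00212). They also passed with the replicate block (edgeR adjusted p = 1.8e-06 and 5.77e-07). Over all genes 997 and 3899 passed in these settings.

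**Figure D2:**
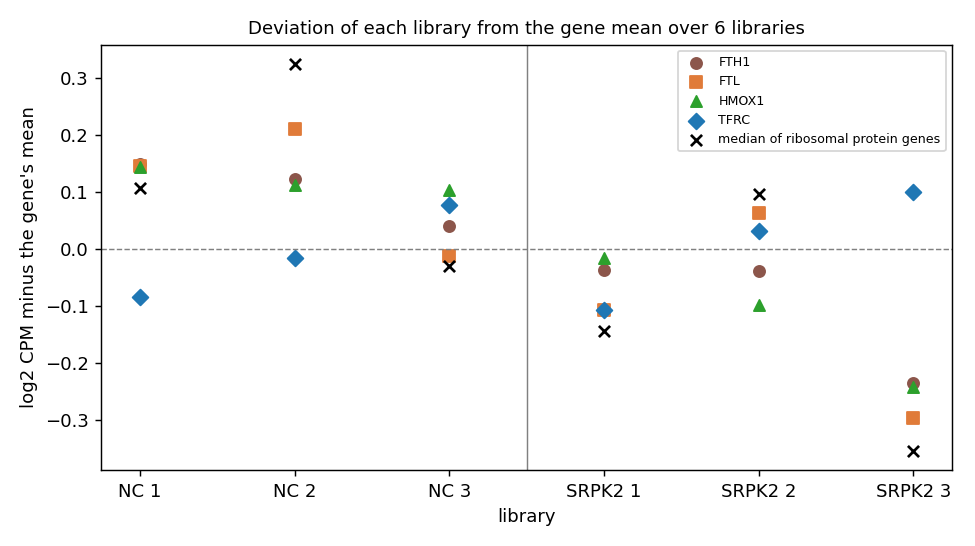
Deviation of log2 CPM from each gene's mean over the 6 libraries (y axis) for FTH1, FTL, HMOX1 and TFRC and for the median of 82 ribosomal protein genes (crosses), by library (x axis, NC left and SRPK2 right of the line). SRPK2 replicate 3 was lowest for the ferritin chains, HMOX1 and the ribosomal median, and highest for TFRC.

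Ferritin genes have many processed copies whose reads the counting could have split. The table held 16 FTH1 and 4 FTL pseudogene rows, and these summed to between 0.265 and 0.343% of the FTH1 reads and to at most 0.0222% of the FTL reads in a library. With these rows added to their parents the log2 fold changes stayed at -0.20 and -0.22. The lowest edgeR adjusted p of the 10 tested pseudogene rows was 0.334.

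HMOX1 (ENSG00000100292.18, chr22:35380361-35394214, plus strand) encodes heme oxygenase 1, which frees iron from heme. It was at 30.4, 29.7 and 29.5 CPM in NC and 27.2, 25.7 and 23.2 CPM with SRPK2. The NC libraries lay within 1 CPM of each other and above all SRPK2 libraries. edgeR gave a value of -0.24 (SE 0.06, 95% interval -0.38 to -0.10, edgeR adjusted p = 0.146). It passed without SRPK2 replicate 2 (log2 fold change -0.25, edgeR adjusted p = 0.0478), where 1403 of 16772 tested genes passed. Without SRPK2 replicate 3 it was -0.18 (edgeR adjusted p = 0.452). HMOX1 also passed with no filter on low counts (edgeR adjusted p = 0.0269), where 997 of 29710 genes passed. With the replicate block it passed too (edgeR adjusted p = 0.000407), where 3899 of 16515 genes passed.

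NRF2, the oxidative stress factor, induces HMOX1 and ferritin among many genes. Of 14 other tested targets 0 were called in edgeR, by DESeq2 or by limma-voom, 1 had an unadjusted edgeR p under 0.05, and the median log2 fold change was -0.0042. The thioredoxin reductase gene TXNRD1 had -0.01 (SE 0.06; it was slightly above 0 with libraries scaled by size alone) and TKT, a pentose phosphate enzyme gene, -0.04 (SE 0.06). Of 12 tested genes of heme synthesis and breakdown 0 were called by any of these 3 tools, 3 had an unadjusted edgeR p under 0.05, and the median was -0.06. CPOX and UROD, enzymes of heme synthesis, had -0.07 (SE 0.05) and -0.13 (SE 0.07).

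Of the import genes, TFRC (ENSG00000072274.13, chr3:196027183-196082189, minus strand) encodes the transferrin receptor. It was at 318, 334 and 356 CPM in NC and 313, 345 and 362 CPM with SRPK2. The ranges nearly coincided, and the log2 fold change was 0.02 (SE 0.06, 95% interval -0.12 to 0.16, edgeR adjusted p = 0.905), or -0.02 after the gene length correction. The ratio of TFRC to FTH1 reads was 0.0835, 0.0893 and 0.101 in NC and 0.0936, 0.103 and 0.124 with SRPK2. The ratios overlapped between the groups, with means of 0.0912 ± 0.0088 and 0.107 ± 0.015 (SD, n = 3 each).

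SLC11A2 (ENSG00000110911.17, chr12:50979401-51028566, minus strand, overlapping the small RNA gene RNU6-87P) encodes DMT1, which carries ferrous iron across membranes. It was at 34.99, 30.5 and 32.1 CPM in NC and 33.1, 31.8 and 34.8 CPM with SRPK2. All SRPK2 values lay inside the NC range (log2 fold change 0.03, SE 0.06, 95% interval -0.11 to 0.17, edgeR adjusted p = 0.830; -0.02 after the gene length correction). STEAP3 (ENSG00000115107.20, chr2:119223831-119265652, plus strand, overlapping STEAP3-AS1 on the opposite strand) encodes the endosomal ferrireductase. It was at 67.2, 64.8 and 67.2 CPM in NC and 71.6, 68.3 and 69.4 CPM with SRPK2. The groups did not overlap, yet the difference was small (log2 fold change 0.07, SE 0.05, 95% interval -0.04 to 0.18, edgeR adjusted p = 0.459).

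Of 13 further tested genes of iron and heme import 0 were called in edgeR, by DESeq2 or by limma-voom, 3 had an unadjusted edgeR p under 0.05, and the median was 0.03. SLC39A14, a zinc and iron importer gene, was at 102 and 104 CPM, and CYBRD1, a ferrireductase gene, at 102 and 104 CPM in NC and SRPK2 libraries. LRP1, an endocytic receptor that takes up heme bound to hemopexin, is named after its values were seen and had 0.32 (SE 0.08, edgeR adjusted p = 0.123). It passed without SRPK2 replicate 2 (edgeR adjusted p = 0.0103), where 1403 of 16772 tested genes passed. LRP1 also passed in 3 of 13 other processing settings. With no filter on low counts its edgeR adjusted p was 0.000748, where 997 of 29710 genes passed.

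SLC40A1 (ENSG00000138449.11, chr2:189560579-189583758, minus strand) encodes ferroportin, the only known iron exporter of mammalian cells. It had the lowest FPKM of the 10 genes in both groups, with 87 to 117 reads in NC and 80 to 115 with SRPK2. Its levels were 2.73, 2.68 and 3.20 CPM in NC and 2.55, 2.80 and 3.00 CPM with SRPK2. These ranges overlapped. edgeR gave a value of -0.04 on the log2 scale (SE 0.13, 95% interval -0.33 to 0.25, edgeR adjusted p = 0.895), and it was 0.05 without NC replicate 3. Of 4 further tested export genes 0 were called by any of the 3 tools, 0 had an unadjusted edgeR p under 0.05, and the median was 0.06. Heme exporter genes FLVCR1 and ABCG2 had 0.09 (SE 0.07) and 0.02 (SE 0.07).

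The sensors ACO1 (ENSG00000122729.19, chr9:32384603-32454769, plus strand), a cytosolic aconitase that binds IREs once it loses its iron-sulfur cluster, and IREB2 (ENSG00000136381.13, chr15:78437431-78501456, plus strand, overlapping an antisense gene), which is degraded when iron is plentiful, overlapped between groups in their mRNA levels. ACO1 was at 140, 138 and 141 CPM in NC and 133, 141 and 141 CPM with SRPK2 (log2 fold change -0.01, SE 0.05, 95% interval -0.12 to 0.09, edgeR adjusted p = 0.920; 0.02 with libraries scaled by size alone). IREB2 was at 37.7, 37.5 and 37.96 CPM in NC and 38.2, 37.5 and 42.6 CPM with SRPK2. SRPK2 replicates 1 and 3 lay above every NC library, replicate 3 the furthest (log2 fold change 0.06, SE 0.06, 95% interval -0.06 to 0.19, edgeR adjusted p = 0.588). Activity of these proteins is set after transcription and was not measured.

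**Figure D3:**
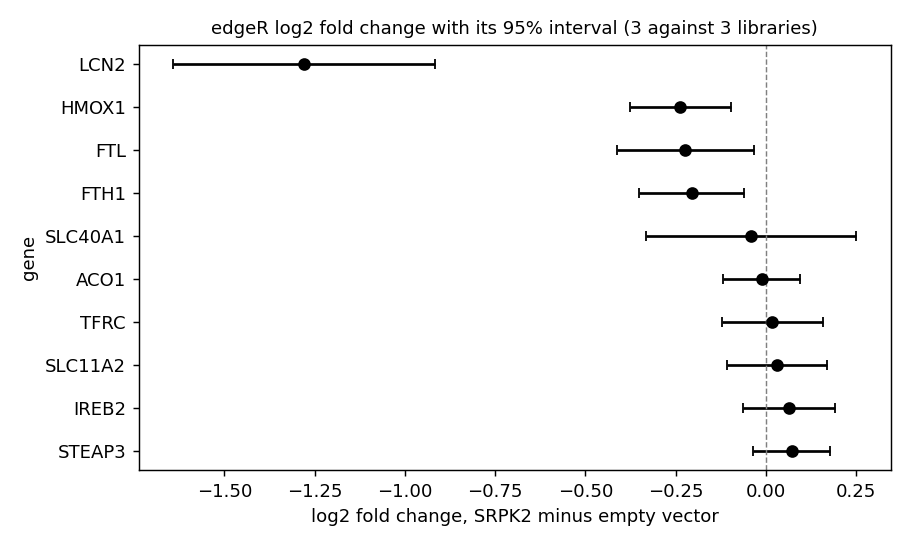
edgeR log2 fold change, SRPK2 minus empty vector (x axis), of each of the 10 genes (y axis), with its unadjusted 95% interval from 3 against 3 libraries. LCN2 stood at -1.28. HMOX1, FTL and FTH1 lay between -0.24 and -0.21, and the other 6 genes had intervals that include 0.

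Other parts of the iron machinery were read from lists of genes. Of 9 tested sensing genes 0 were called in edgeR, by DESeq2 or by limma-voom, and 1 had an unadjusted edgeR p under 0.05 (median 0.02). SKP1, a ubiquitin ligase subunit gene, had -0.12 (SE 0.07), and HIF1A, a hypoxia factor gene, 0.11 (SE 0.07). EGLN2, an iron-dependent prolyl hydroxylase gene named after its values were seen, had 0.55 (SE 0.14, edgeR adjusted p = 0.131). It shares its locus with a readthrough transcript of RAB4B and stood at 1.77 and 2.60 CPM in NC and SRPK2 libraries. EGLN2 passed without SRPK2 replicate 2 (edgeR adjusted p = 0.0364), where 1403 of 16772 tested genes passed. EGLN2 also passed in 2 of 8 other processing settings that held it. With no filter on low counts its edgeR adjusted p was 0.0287, where 997 of 29710 genes passed. Of 6 tested genes of ferritin turnover 0 were called by the 3 tools and 1 had an unadjusted edgeR p under 0.05 (median -0.0047). PCBP1 and PCBP2, which deliver iron to ferritin, had -0.04 (SE 0.05; 0.03 after the gene length correction) and -0.11 (SE 0.05).

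Genes of iron-sulfur cluster assembly and mitochondrial iron had a median of -0.11. None of the 20 was called by the 3 tools, 4 (20.0%) had an unadjusted edgeR p under 0.05, beside 17.2% of all tested genes, and 16 values were negative. The groups did not overlap for 2 of them, both lower, beside 8.69% of all tested genes that were apart and lower. HSPA9, the mitochondrial chaperone gene of this step, had -0.06 (SE 0.05) and SLC25A37, which encodes the iron importer mitoferrin, 0.07 (SE 0.05). In the ferroptosis list, genes of iron-dependent lipid peroxidation and death, 1 of 12 was called, PTGS2, the inducible cyclooxygenase gene used as a marker of that death (log2 fold change -0.41, SE 0.07, edgeR adjusted p = 0.0297). Without NC replicate 1, NC replicate 3, SRPK2 replicate 1 or SRPK2 replicate 3 PTGS2 missed the threshold (edgeR adjusted p = 0.184, 0.110, 0.140 and 0.0561). It also missed it with libraries scaled by size alone (edgeR adjusted p = 0.0545) and in the 3 limma fits of FPKM (adjusted p = 0.154, 0.151 and 0.368). That list's median was 0.05.

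Other known carriers of IREs gave a median of 0.06 over 5 tested genes, with 0 called by the 3 tools and 1 with an unadjusted edgeR p under 0.05. SDHD, a succinate dehydrogenase subunit gene, had -0.12 (SE 0.07) and EPAS1, a hypoxia factor gene, -0.05 (SE 0.05). Among all genes with the IRE pattern of the FTH1, FTL, SLC40A1 and TFRC sites, those 4 genes left out, 131 were tested. Of these 0 were called by the 3 tools and 23 (17.6%, beside 17.2% of all tested genes) had an unadjusted edgeR p under 0.05, the median was 0.02, and 78 values were positive and 53 negative. Over all 109 tested list genes outside the 10, 1 was called (PTGS2), where edgeR called 0.454% of all tested genes. An unadjusted edgeR p under 0.05 was held by 21 (19.3%, beside 17.2% of all tested genes), and the median was 0.00.

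**Figure D4:**
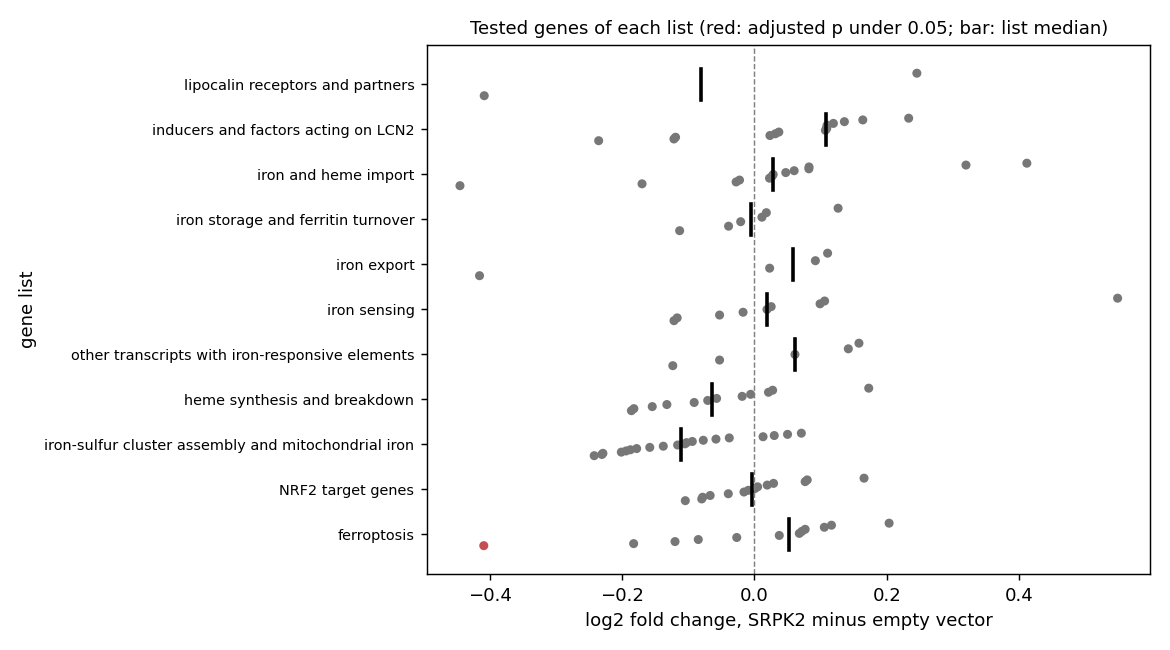
edgeR log2 fold change, SRPK2 minus empty vector (x axis), of the tested genes of each list (y axis, 1 point per gene, vertical bar at the list median). The 1 gene past the threshold, in red, is PTGS2 at -0.41, and list medians lay between -0.11 and 0.11.

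Levels can be compared between genes only per length. On the deposited FPKM scale the order of the NC means was FTL (3704 ± 224), FTH1 (1651 ± 44.4), TFRC (38.7 ± 2.73), ACO1 (16.6 ± 0.44), STEAP3 (13.05 ± 0.47), HMOX1 (11.6 ± 0.21), IREB2 (3.13 ± 0.08), SLC11A2 (2.95 ± 0.22), LCN2 (2.63 ± 0.36) and SLC40A1 (0.61 ± 0.07), each as mean ± SD with n = 3. IREB2 and SLC11A2 overlapped in their libraries, as did SLC11A2 and LCN2, while all other neighbours were apart. The mean order was the same with SRPK2, but there LCN2, at 0.97 to 1.42 FPKM, lay below every library of SLC11A2, at 2.91 to 3.31 FPKM. FTH1 and FTL had nearly equal reads but differed in FPKM, because the lengths implied by the authors' values were 2211 bases for FTH1 and 961 bases for FTL. These lengths are per gene. The lengths of the transcripts present in the cells were not measured, and the FPKM order of the genes depends on the lengths used.

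**Figure D5:**
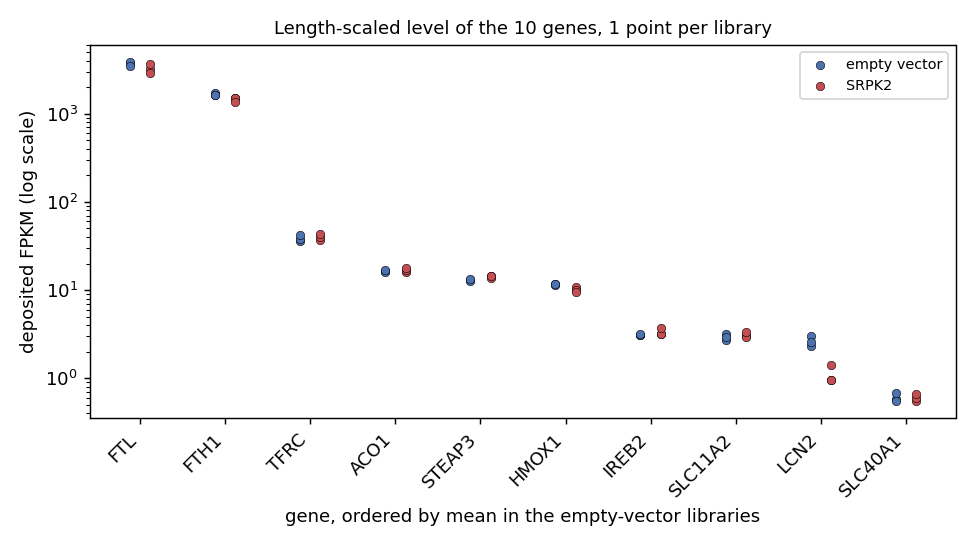
Deposited FPKM (y axis, log scale) of the 10 genes (x axis, ordered by their mean in the empty-vector libraries), 1 point per library and colours for the groups. The ferritin chains stood at 1371 to 3892 FPKM, and LCN2 is the gene whose groups are furthest apart.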

How the data were processed

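RNA sequencing counts of 6 libraries, 3 per group, grouped by their titles, were used. The submitters' processing notes list bcl2fastq, FastQC, HISAT2 and GRCh38. Which program assigned reads to genes, with which annotation and strand option, is not given in the sources used here. Overlapping genes are therefore uncertain. The authors deposited whole-number counts per gene, not normalized (29710 genes), and FPKM values rounded to 2 decimals (29256 genes). No per-sample column was left out.

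The main test was the two-sided quasi-likelihood F test of edgeR 4.0.16 (R 4.3.3) after filterByExpr and TMM scaling. It covered 16515 genes with 99.9% of the reads, and p-values were adjusted over all 16515 by Benjamini-Hochberg (threshold 0.05). Each SE is |log2 fold change| divided by the root of F, and intervals are 95%. CPM are TMM scaled, and log2 CPM has a prior count of 2. DESeq2 1.42.0 and limma 3.58.1 were alternatives, with other normalizations, filters, FPKM on log2 scales (pseudocounts of 1 and 0.1), a replicate block, a loess correction for gene length (span 0.3, 13624 genes), ferritin summed with its pseudogene rows, and each library left out. Scripts were tested on simulated data. Coordinates are from GENCODE 29 and promoters from RefSeq (GRCh38.p14). Each p-value sets the difference between groups against the spread between these libraries, all of the same cell line.

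The 10 genes, the lists and the markers were chosen with earlier results of these data known. The rule named the 10 genes, SRPK2, up to 3 called genes or the 2 most abundant of each list, the 5 genes most like LCN2 (1 of which is not reported here), and the ferritin pseudogenes with at least 10 reads in every library, which are given here as sums. The ribosomal protein genes and the genes marked as such in the text were added after values were seen.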

Additional observations from a re-analysis of the deposited data

How the results depend on the processing

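The log2 fold change of LCN2, a description as the gene was chosen for it, ranged from -1.48 to -0.78 (in limma on log2(FPKM + 1)), and a mean CPM of at least 5 left the gene out. Of the 10 genes, 4 passed with no filter on low counts, 0 with a mean CPM of at least 5 and 0 in limma on log2(FPKM + 1) with no filter. With 1 library left out, 1 to 3 passed, 3 of them without SRPK2 replicate 2. Over all genes, 75 passed in the main fit, 997 with no filter, 153 in DESeq2, 18 in limma on log2(FPKM + 1) with no filter and 114 after the gene length correction. With 1 library left out the count was 27 (without NC replicate 1) to 1403 (without SRPK2 replicate 2). The cause was not tested.

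With the replicate block 3899 genes passed, and 3231 with the block and the gene length correction, 4 of the 10 genes in each (LCN2, FTH1, FTL and HMOX1). Deviations of same-numbered libraries correlated at 0.08, 0.23 and 0.17, and each library correlated best with its own number. Libraries of different numbers correlated between -0.165 and -5.48e-05. As deviations were taken from the mean of each group, positive values for the same number draw these down, so they add no separate information. As not every pair exceeded 0.1 and no label says that a number marks a shared origin, the main fit has no block. Whether the numbers mark a shared origin was not tested. Whether FTH1, FTL and HMOX1 pass depends on the block and on the filter on low counts. For FTL and HMOX1 it also depends on SRPK2 replicate 2.

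Values near 0 changed sign. With library size alone ACO1 was 0.024 and TXNRD1 0.027. In limma they were 0.023 and 0.027 on log2(FPKM + 1), with and without the filter, and 0.024 and 0.027 on log2(FPKM + 0.1). After the gene length correction TFRC was -0.021, SLC11A2 -0.021, SLC39A14 -0.011 and PCBP1 0.032, and with the block added -0.022, -0.018, -0.011 and 0.032. With 1 library left out, the range was -0.032 to 0.069 for TFRC, -0.016 to 0.086 for SLC11A2, -0.10 to 0.046 for SLC40A1, -0.029 to 0.013 for ACO1, -0.83 to 0.014 for LRP2, -0.014 to 0.051 for SLC39A14, -0.014 to 0.057 for ABCG2 and -0.038 to 0.030 for TXNRD1. LCN2 and SLC40A1 had at most 190 and 117 reads in a library, and the share of depth in their spread was not tested. Of the other list genes, 109 of which were tested in the main fit, 1 passed there and 7 with no filter. After the gene length correction 2 passed, with the block 39, and with 1 library left out 0 to 11. Over all genes, 75 of 16515 passed in the main fit and 997 of 29710 with no filter. The gene length correction gave 114 of 13624 and the block 3899 of 16515. With 1 library left out 27 to 1403 passed. With the block 2146 genes were lower and 1753 higher.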
